A study of Callithrix jacchus with 20 samples.

Results

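The 10 genes described here belong to the NOTCH pathway of the common marmoset, and they were chosen by symbol as the ligand genes DLL1, DLL3 and JAG1, the receptor genes NOTCH1 and NOTCH3, the glycosyltransferase gene LFNG and the target genes HES1, HEY1, HEY2 and HEYL. All 10 were found among the 25102 genes of the count table, and all 10 passed the filter on low counts that left 15797 genes for testing. Poly(A) RNA of a single marmoset line of induced pluripotent stem cells (cjiPSCs), DPZ_cjiPSC#2, was sequenced in 10 conditions with 2 biological replicates each. The cjiPSCs were grown in TESR medium or in cjPSCM, a medium that contains CHIR, a GSK3 inhibitor that activates WNT signalling, together with A419259, IWR-1, vitamin C, LIF, TGFβ and FGF2. From both cultures, precursors of mesendoderm (pre-ME) were made in 24 h with 3 µM CHIR and the ROCK inhibitor Y-27632, either with 100 ng/ml Activin A (ActA) or without it. Embryoid bodies were then made from the pre-ME of cjPSCM origin in BMP4, LIF, SCF, EGF and Y-27632, and on day 4 they were sorted into primordial germ cell-like cells (cjPGCLCs) and somatic cells for each of the pre-ME conditions. Sorted cells of TESR origin were not analysed here. The labels name EpCAM together with CXCR4 or INTα6 for the sort, whereas the methods of the study name CXCR4 and INTα6. All conditions came from 1 line, so that the replicates show the spread between cultures of that line and not between animals. The pre-ME of TESR origin carry sample numbers apart from those of all other libraries. The labels do not say whether they were processed together with the others. Where they are compared with another condition, such a difference cannot be told apart from origin or treatment.

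In NOTCH signalling, a ligand of the Delta-like or Jagged family on one cell binds a NOTCH receptor on its neighbour. The receptor is then cleaved by an ADAM protease and by γ-secretase, and its intracellular part moves to the nucleus, where it joins RBPJ and Mastermind proteins and switches on HES and HEY genes. These encode transcriptional repressors with a basic helix-loop-helix domain. LFNG adds sugar to the receptors and thereby changes which ligand they answer to, and DLL3 is an atypical ligand that does not activate receptors on other cells. In the embryo the pathway drives the segmentation clock in the mesoderm that leaves the primitive streak, and it also acts in blood vessels and in the nervous system. Several target genes answer to other signals as well, so transcript levels of HES and HEY genes do not measure receptor cleavage, which was not assayed.

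Each library held between 4784964 and 22067099 reads on genes, and the 10 genes together took 0.0723% to 0.151% of them. The pre-ME of TESR origin were deep, at 18858625 reads or more, and the somatic cells were shallow, at 7171565 or fewer. The cjiPSCs in TESR medium had 20511950 reads in replicate 1 and 8590205 in replicate 2. Replicate 2 of the cjPGCLCs without ActA had 6708915. Replicates differed with an SD over tested genes of 0.959 on the log2 scale in the cjiPSCs in cjPSCM and 0.311 to 0.619 in the other 9 conditions, so values from this condition were the least precise. The labels were checked against marker genes. POU5F1 and SOX2, which define pluripotency, were well counted in the cjiPSCs, but in the sorted somatic cells POU5F1 was still at 1184 to 1287 normalised counts. In the pre-ME of cjPSCM origin the mesendoderm gene TBXT reached at most 1.67 normalised counts, against 7.95 to 55.3 in that of TESR origin. Over the 7 mesendoderm markers listed, the summed level in pre-ME of cjPSCM origin was 676 to 1161 with ActA and 189 to 242 without it. In the cjiPSCs in cjPSCM that sum was 13.3 to 19.8. In the cjPGCLCs the germ cell genes SOX17 (913 to 2152) and NANOS3 (14.2 to 61.5) lay above the somatic cells (48.4 to 219 and 0 to 3.54). KIT of the same list did not, with means of 866 against 1202 with ActA and 1036 against 857 without it (edgeR, adjusted p = 0.301 and 0.53). The summed level of the 6 germ cell markers listed was 2157 to 2305 in cjPGCLCs with ActA and 3580 to 3735 without it. In the cjiPSCs in cjPSCM this sum was already 1860 to 3026. Its largest parts there were PRDM1, KIT and SOX17, with means of 998, 704 and 511, while the mean of NANOS3 was 4.98. However, the mesodermal gene PDGFRA was as high in the cjPGCLCs (3659.8 to 7781) as in the somatic cells (3481 to 8217), with overlapping ranges. HAND2 and COL1A1 of the same list were lower in cjPGCLCs without ActA. Their means were 620 against 3038 and 449 against 2377 (edgeR, adjusted p = 0.00154 and 0.0293). The other tested markers of this list did not pass without ActA, and none passed with it. In bulk RNA, fewer cells of a type and less RNA per cell cannot be told apart.

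The genes differed in how far their levels moved. Levels are given as normalised counts, that is, read counts divided by the authors' size factor of the library, and they are compared between conditions of 1 gene only, since transcript lengths were not used. The summed levels of marker lists are an exception. They too are compared between conditions only, and genes with many counts weigh most in them, so a sum need not stand for each gene of its list. HEY2, a repressor known from heart and vessel development, had the widest range, with a condition mean 50.6 times as high in its highest as in its lowest condition. Next were its relative HEY1 with 27.8 times and the ligand gene DLL1 with 20.4 times. The receptor genes moved least, with 2.7 times for NOTCH1 and 2.21 times for NOTCH3, and JAG1 moved 3.03 times. For LFNG, HES1 and HEYL the ratio was 11.4, 8.65 and 4.44. DLL3 rested on few reads, with 4.61 to 37.7 normalised counts, and 2 of its 20 libraries held 3 counts or fewer.

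**Figure D1:**
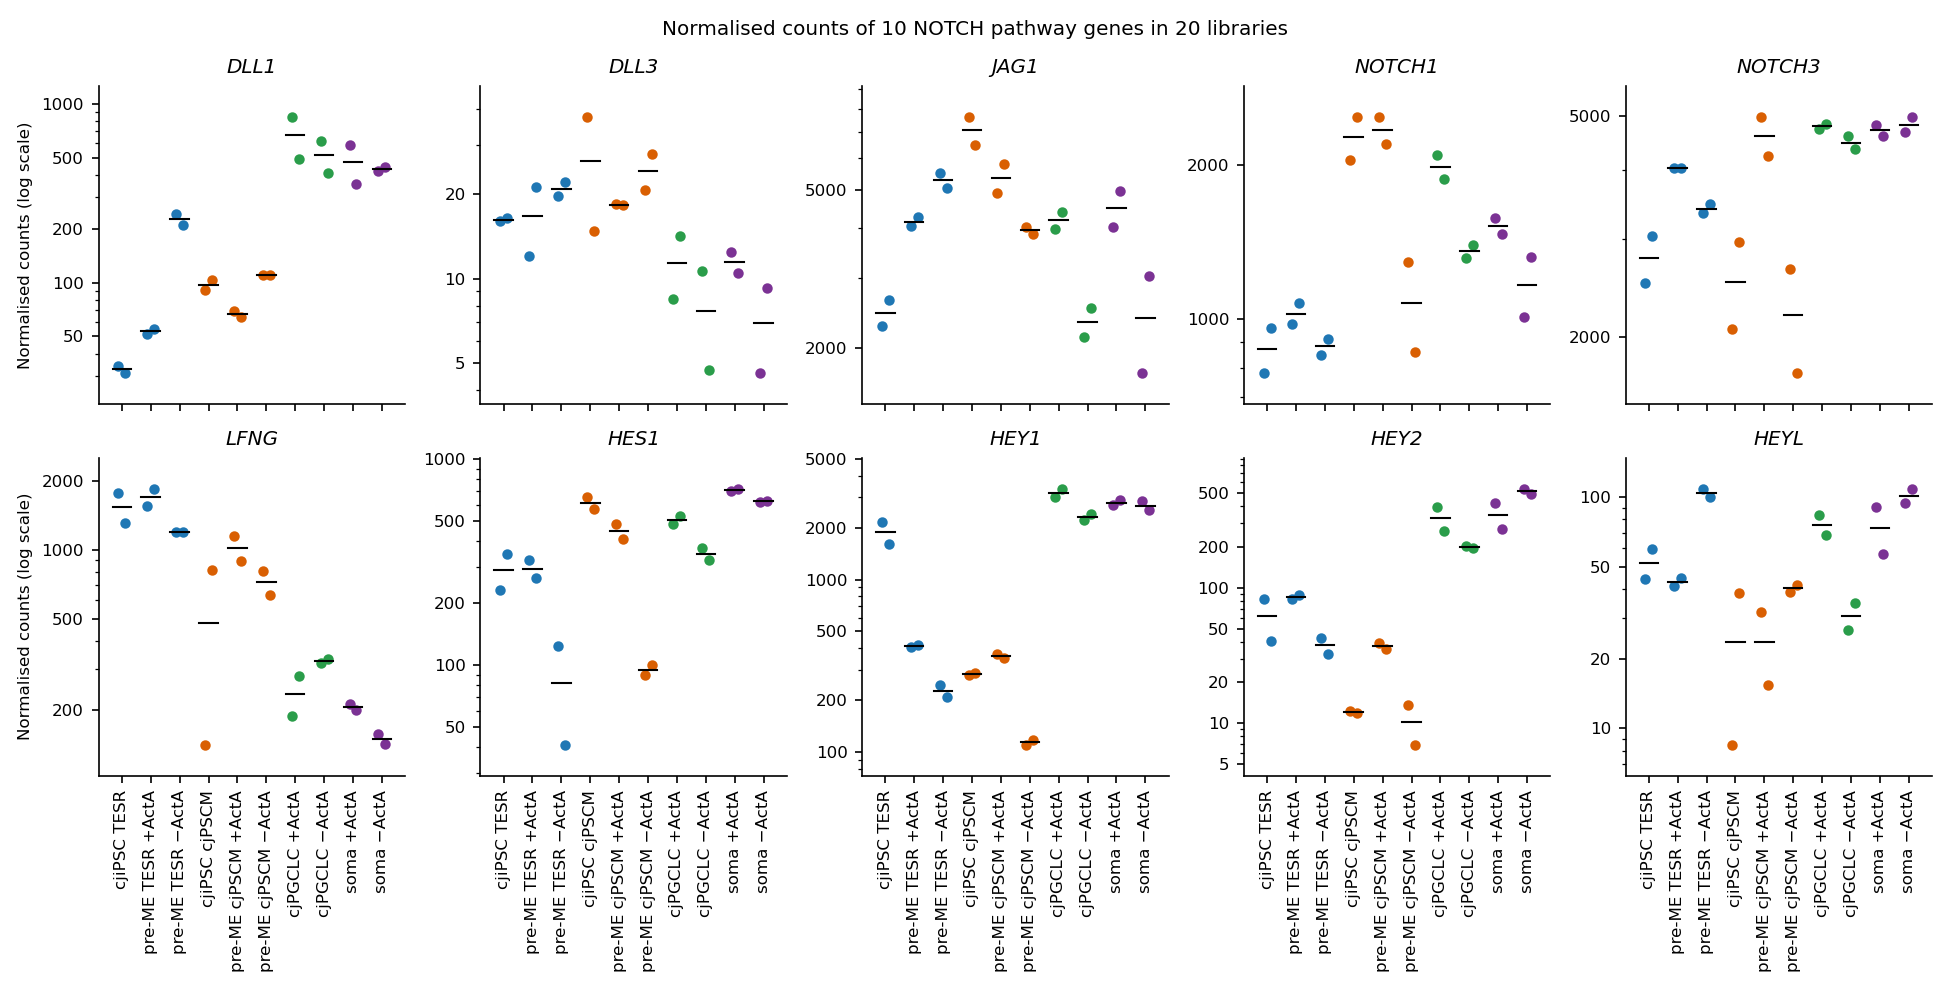
Normalised counts (vertical axis, log scale) of the 10 genes in the 10 conditions (horizontal axis), with a point for each library and a line at the mean of the 2 replicates; blue is TESR origin, orange is cjPSCM origin, green is cjPGCLCs and purple is somatic cells. DLL1, HEY1 and HEY2 stood high in all 8 libraries of sorted cells, LFNG and DLL3 stood low there, and HES1 was lowest in the pre-ME without ActA.

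When the 10 conditions were put in order of their means, the neighbours in that order often overlapped. For HEY1 only 1 of the 9 neighbouring pairs of conditions had libraries that overlapped, whereas for HEYL and DLL3 7 of the 9 pairs did. The order for HEY1 ran from cjPGCLCs with ActA (2987 and 3359.8) through the somatic cells with ActA (2697 and 2879) and without ActA (2846 and 2512) and the cjPGCLCs without ActA (2208 and 2396) to the cjiPSCs in TESR medium (2157 and 1608). The libraries of the remaining 5 conditions lay at 419 or below. For HEY2 the 4 conditions of sorted cells came first as well, followed by the pre-ME of TESR origin with ActA (83.2 and 88.1), while the cjiPSCs in TESR medium (82.6 and 40.2), the pre-ME of that origin without ActA (42.8 and 32.3) and the pre-ME of cjPSCM origin with ActA (39.2 and 35.1) formed a run of overlapping conditions. The cjiPSCs in cjPSCM (12.2 and 11.9) and the pre-ME of that origin without ActA (13.6 and 6.93) came last and overlapped. Both genes were thus highest in sorted cells, and HEY1 was lowest in the pre-ME of cjPSCM origin without ActA.

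The next question was how the culture medium of the cjiPSCs changed the pathway. In cjPSCM the ligand genes DLL1 and JAG1, the receptor gene NOTCH1 and the target gene HES1 were higher than in TESR medium, whereas LFNG and all 3 HEY genes were lower. Hence 8 of the 10 genes passed the test (adjusted p under 0.05 in edgeR), 4 in each direction, where 36.2% of all genes tested passed, 18.1% higher and 18.1% lower. HEY1 stood at 2157 and 1608 normalised counts in the replicates in TESR medium and at 281 and 288 in those in cjPSCM, a fall of 6.75-fold (log2 fold change −2.75, SE 0.15, adjusted p = 3.44e-09). HEY2 stood at 82.6 and 40.2 in TESR medium and at 12.2 and 11.9 in cjPSCM, a fall of 5.43-fold (log2 fold change −2.44, SE 0.41, adjusted p = 0.00021). These 2 genes were past both thresholds of the study, that is, also changed by more than 2 on the log2 scale, which 9.18% of all genes met. HES1, the best known target of the pathway, moved the other way, from 232 and 347 to 655 and 572 (log2 fold change 1.09, SE 0.30, adjusted p = 0.00994). The ligand gene JAG1 rose 2.85-fold, from 2266 and 2639 to 7645 and 6496 (SE 0.20 on the log2 scale, adjusted p = 2.22e-05). DLL1 rose 2.86-fold, from 34.2 and 31.3 to 90.4 and 104 (adjusted p = 0.0015), and NOTCH1 rose 2.58-fold, from 782 and 959 to 2053 and 2487 (adjusted p = 1.52e-05). No library of 1 medium overlapped the other for these 6 genes. The share of all genes tested that were separated in this way is not given here, so this count by itself says little. DLL3 and NOTCH3 did not pass, with log2 fold changes of 0.74 (SE 0.45, adjusted p = 0.217) and −0.16 (SE 0.18, adjusted p = 0.514).

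LFNG and HEYL were lower in cjPSCM, but their replicates in this medium stood far apart. LFNG was at 1765 and 1313 in TESR medium and at 140.3 and 815 in cjPSCM (log2 fold change −1.76, SE 0.45, adjusted p = 0.00579), and its log2 fold change ranged from −3.46 to −0.96 as either cjPSCM replicate was left out. The call was lost without replicate 1 in TESR medium (adjusted p = 0.0532), and the log2 fold change of HEY2 was −1.72 without that library. HEYL was at 44.1 and 59.6 in TESR medium and at 8.48 and 38.5 in cjPSCM (log2 fold change −1.25, SE 0.46, adjusted p = 0.0443), and this call was lost without either TESR replicate or without replicate 1 in cjPSCM (log2 fold changes −1.47 to −0.42 in these fits, adjusted p up to 0.442). Without replicate 2 in cjPSCM the HEYL value was −2.55, and the call held. Without replicate 1 in TESR medium 5 genes passed, HES1 being lost as well (adjusted p = 0.127), and without replicate 2 in TESR medium or replicate 1 or 2 in cjPSCM the number was 7, 7 and 9. Fitted on the 4 cjiPSC libraries alone, DLL1, LFNG and HEYL did not pass (adjusted p = 0.0583, 0.0712 and 0.351). The median absolute log2 fold change of the 10 genes was 1.44, and over all genes tested it was 0.46.

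Markers of other cell types moved with the medium as well. Of the 8 endothelial markers listed, 7 were past both thresholds and higher in cjPSCM, and their summed level was 7849 to 9492 normalised counts in TESR medium and 18145 to 38092 in cjPSCM. CDH5, the cadherin of vessel walls, was at 671 and 619 in TESR medium and at 11857 and 3403 in cjPSCM, and no marker of the list was at 0. The summed level of the 7 mesendoderm markers was 400.5 to 602 in TESR medium and 13.3 to 19.8 in cjPSCM, where TBXT and GSC were at 0, and 4 of the 6 that could be tested were lower in cjPSCM. Among these was EOMES, a T-box gene of mesendoderm, at 329 and 536 against 4.71 and 1.48. Of the 7 tested markers of mesoderm and mesenchyme, 3 were higher in cjPSCM and 0 lower, with sums of 2044 to 3420.3 in TESR medium and 4064 to 4097 in cjPSCM. The part of all these markers in the difference of the NOTCH genes was not tested.

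Pre-ME without ActA were compared with the cjiPSCs from which they were made, which asks what the 24 h in CHIR and a new basal medium changed. The target genes HEY1 and HES1 fell from both media, whereas the ligand genes differed by origin. In pre-ME of TESR origin 5 of the 10 genes passed (36.6% of all genes), 3 higher and 2 lower (17.4% and 19.2% of all genes), and in pre-ME of cjPSCM origin 4 passed (38% of all genes), all lower (20.1% of all genes). HEY1 fell from 2157 and 1608 to 246 and 208 in cells of TESR origin (log2 fold change −3.05, SE 0.15, adjusted p = 9.32e-10). In cells of cjPSCM origin it fell from 281 and 288 to 110.2 and 118 (log2 fold change −1.28, SE 0.16, adjusted p = 2.18e-05). The fall was thus larger from the medium in which HEY1 had started high, and the difference between the 2 log2 fold changes was 1.76 (SE 0.22, adjusted p = 0.000176). HES1 fell from 232 and 347 to 124 and 41.2 in TESR origin (log2 fold change −1.79, SE 0.32, adjusted p = 0.000434). From cjPSCM it fell from 655 and 572 to 89.6 and 100.1 (log2 fold change −2.67, SE 0.33, adjusted p = 1.68e-05). The replicates of HES1 in pre-ME of TESR origin stood apart, so that its log2 fold change was −2.78 to −1.19 depending on the library left out, and the call held each time.

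DLL1, JAG1 and NOTCH1 did not follow the same course from the 2 media. DLL1, the main Delta-like ligand of early mesoderm, rose 6.83-fold in pre-ME of TESR origin, from 34.2 and 31.3 to 242 and 209.6 (SE 0.30 on the log2 scale, adjusted p = 4.3e-06). In pre-ME of cjPSCM origin it was at 110.2 and 110.0 against 90.4 and 104 before, and the log2 fold change was 0.22 (SE 0.28, adjusted p = 0.552). The difference between the media passed the test, at −2.55 (SE 0.41, adjusted p = 0.00172). JAG1 rose 2.18-fold in TESR origin, from 2266 and 2639 to 5532 and 5059.9 (adjusted p = 0.000424). It fell 1.75-fold in cjPSCM origin, from 7645 and 6496 to 4023 and 3882 (adjusted p = 0.00495). After the 24 h the JAG1 levels of the 2 origins were closer than before, and the difference of the effects was −1.93 (SE 0.28, adjusted p = 0.000759). NOTCH1 was at 849.8 and 914 in pre-ME of TESR origin, where its log2 fold change against the cjiPSCs was 0.04 (SE 0.17, adjusted p = 0.897). It fell 2.06-fold in cjPSCM origin, from 2053 and 2487 to 1290.4 and 858 (adjusted p = 0.000287), and the difference of the effects was −1.08 (SE 0.25, adjusted p = 0.0145). With HEY1, these were the 4 of 10 genes whose change depended on the medium, where 6.54% of all genes tested passed that interaction. The NOTCH1 difference was lost without TESR cjiPSC replicate 1, TESR pre-ME replicate 2 or cjPSCM pre-ME replicate 2 (adjusted p up to 0.0809), and fitted on the 8 libraries concerned it had an adjusted p of 0.187. Fitted on the 4 cjPSCM libraries alone, the falls of JAG1 and NOTCH1 had adjusted p = 0.0665 and 0.0699. Since cjPSCM already contains CHIR and TESR medium does not, the addition of CHIR and the change of the other components cannot be told apart. In the same steps 8 of the 8 endothelial markers fell in cjPSCM origin and 6 in TESR origin. Their sum went from 18145 to 38092 to 5838 to 5853 in cjPSCM origin and from 7849 to 9492 to 1529 to 1575 in TESR origin, and none of them was at 0. The sum of the mesendoderm markers went from 13.3 to 19.8 to 189 to 242 and from 400.5 to 602 to 1309 to 1392, with CDX1 and CDX2 higher in pre-ME of both origins and EOMES lower in TESR origin. The part of these markers in the changes of HEY1, HES1, JAG1, DLL1 and NOTCH1 was not tested.

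**Figure D2:**
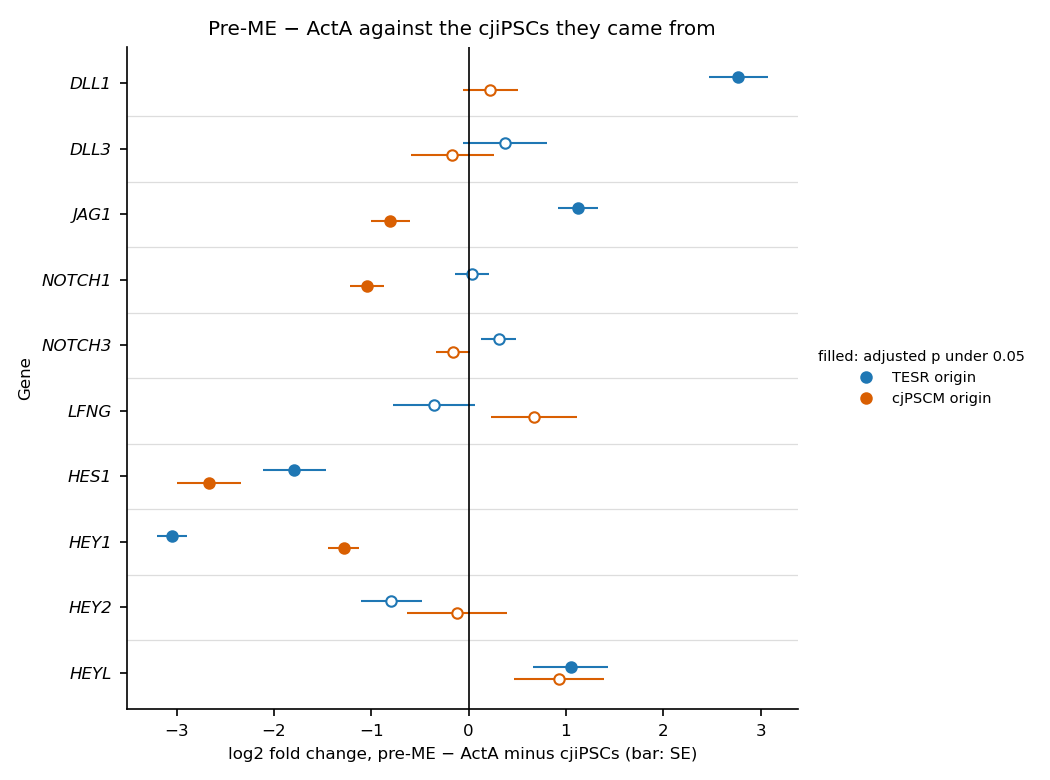
Log2 fold change (horizontal axis, bars are standard errors) of each gene (vertical axis) in pre-ME without ActA against the cjiPSCs they came from, in blue for TESR origin and in orange for cjPSCM origin; filled points passed at an adjusted p under 0.05. HEY1 and HES1 lay left of 0 in both, and JAG1 lay on opposite sides of 0.

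HEYL rose in pre-ME of TESR origin without ActA, from 44.1 and 59.6 to 109 and 100.1 (log2 fold change 1.05, SE 0.39, adjusted p = 0.0418). Its libraries did not overlap, but the call was lost when any 1 of the 4 libraries was left out (adjusted p up to 0.214).

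Pre-ME made with ActA were compared with the cjiPSCs in the same way. In pre-ME of TESR origin 3 genes passed (34.5% of all genes), namely HEY1 as the only gene that fell (17.1% of all genes) and JAG1 and NOTCH3, which rose (17.3%). HEY1 was at 405 and 419 after 2157 and 1608 (log2 fold change −2.19, SE 0.15, adjusted p = 3.01e-08). JAG1 was at 4045 and 4277 after 2266 and 2639 (log2 fold change 0.78, SE 0.20, adjusted p = 0.0067), and NOTCH3, a receptor gene known from mural cells of vessels, was at 4034 and 4034 after 2501 and 3038 (log2 fold change 0.56, SE 0.18, adjusted p = 0.0239). DLL1, which rose strongly without ActA, was at 51.4 and 55.2 here, and its log2 fold change was 0.69 (SE 0.32, adjusted p = 0.103). In pre-ME of cjPSCM origin 2 genes passed (17.7% of all genes), and both rose (7.42% of all genes). HEY2 went from 12.2 and 11.9 to 39.2 and 35.1 (log2 fold change 1.64, SE 0.45, adjusted p = 0.0182) and NOTCH3 from 2065 and 2959 to 4986 and 4230.1 (log2 fold change 0.90, SE 0.18, adjusted p = 0.00257). For HEY1 and HES1 the log2 fold changes were 0.36 (SE 0.15, adjusted p = 0.113) and −0.44 (SE 0.30, adjusted p = 0.327), so neither passed. The NOTCH3 call in TESR origin was lost without TESR cjiPSC replicate 1 or either pre-ME replicate (adjusted p up to 0.129), and the HEY2 call was lost without replicate 1 of either cjPSCM condition (up to 0.139). Fitted on the 4 libraries of cjPSCM origin alone, HEY2 and NOTCH3 had adjusted p = 0.157 and 0.155.

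ActA itself was then followed by comparing pre-ME with and without it. HES1, HEY1 and HEY2 were higher with ActA in pre-ME of both origins, and HES1 had the largest fold change of the 3. HES1 stood at 324 and 264 with ActA and 124 and 41.2 without it in TESR origin, 3.59-fold higher (log2 fold change 1.84, SE 0.31, adjusted p = 0.000985). In cjPSCM origin it stood at 486 and 410.1 with ActA and 89.6 and 100.1 without it, 4.69-fold higher (log2 fold change 2.23, SE 0.32, adjusted p = 0.000235). No library with ActA overlapped a library without it. HEY1 was 1.81-fold higher in TESR origin (405 and 419 against 246 and 208, adjusted p = 0.000947) and 3.13-fold higher in cjPSCM origin (370.5 and 351 against 110.2 and 118, adjusted p = 4.68e-06). HEY2 was 2.28-fold higher in TESR origin (83.2 and 88.1 against 42.8 and 32.3, adjusted p = 0.0174) and 3.38-fold higher in cjPSCM origin (39.2 and 35.1 against 13.6 and 6.93, adjusted p = 0.00856). These 3 genes were among 5 of 10 that passed in TESR origin, where 8.84% of all genes passed and 5.63% were higher with ActA, and among 5 of 10 in cjPSCM origin, where 20.9% passed and 11.4% were higher. The HEY2 call in TESR origin was lost with any 1 of its 4 libraries left out (adjusted p up to 0.224), and in cjPSCM origin without replicate 1 with ActA or replicate 2 without it (up to 0.098, log2 fold changes 1.43 to 1.66 in these fits and at most 2.38 in the others). The HES1 fold change in TESR origin was 1.25 to 2.84 on the log2 scale, depending on which library without ActA was left out.

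**Figure D3:**
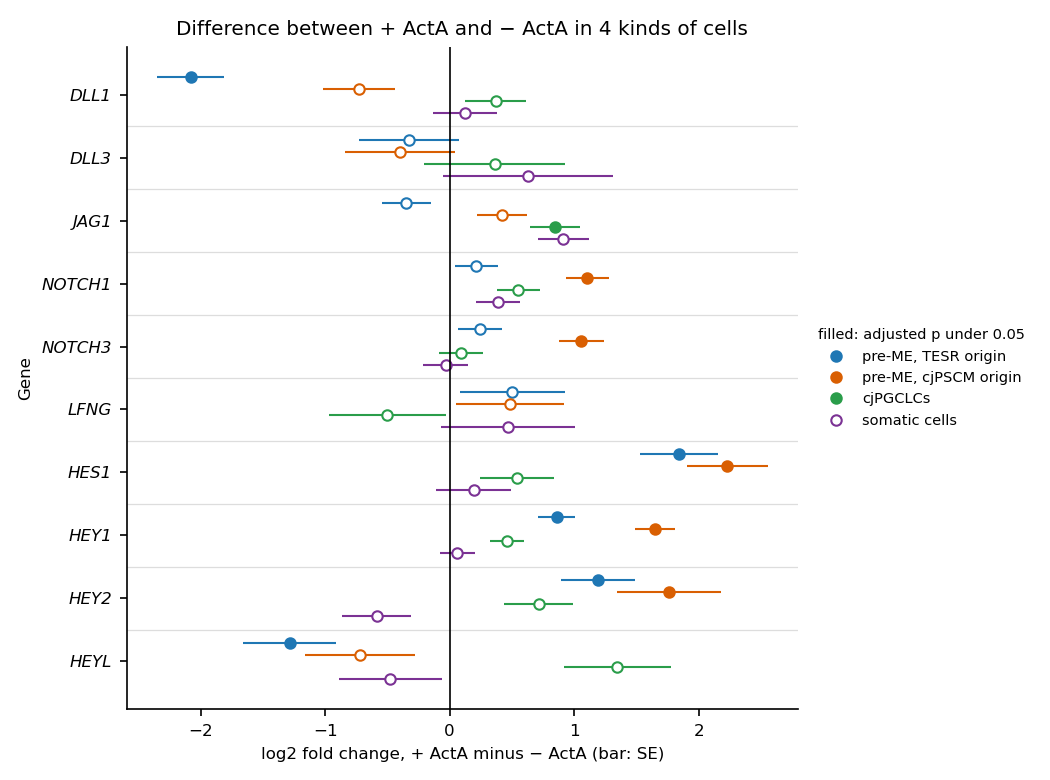
Log2 fold change between cells with and without ActA in the pre-ME step (horizontal axis, bars are standard errors) of each gene (vertical axis), in blue for pre-ME of TESR origin, orange for pre-ME of cjPSCM origin, green for cjPGCLCs and purple for somatic cells; filled points passed at an adjusted p under 0.05. HES1, HEY1 and HEY2 lay right of 0 in both kinds of pre-ME, whereas in sorted cells only JAG1 in cjPGCLCs passed.

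The other genes that passed were not the same in the 2 origins. In TESR origin DLL1 was 4.23-fold lower with ActA (51.4 and 55.2 against 242 and 209.6, log2 fold change −2.08, SE 0.27, adjusted p = 7.72e-05), and this was the only one of the 10 genes past both thresholds there, as 2% of all genes were. HEYL was 2.43-fold lower with ActA (41.0 and 44.6 against 109 and 100.1, adjusted p = 0.0404), a call that was lost without any 1 of the 4 libraries (up to 0.268). In cjPSCM origin the log2 fold changes of DLL1 and HEYL were −0.73 (SE 0.29, adjusted p = 0.082) and −0.72 (SE 0.44, adjusted p = 0.258). The receptor genes passed in cjPSCM origin. NOTCH1 was 2.15-fold higher with ActA (2493 and 2201 against 1290.4 and 858, adjusted p = 0.00047), and NOTCH3 was 2.08-fold higher (4986 and 4230.1 against 2653 and 1719.8, adjusted p = 0.000918). In TESR origin their log2 fold changes were 0.21 (SE 0.17, adjusted p = 0.587) and 0.25 (SE 0.18, adjusted p = 0.524). The difference of the ActA effect between the origins was tested directly, and none of the 10 genes passed in edgeR, where 0.399% of all genes did. Here 5 of the 10 genes had an unadjusted p under 0.05, and DESeq2 called 2 of them, HEY1 and NOTCH1 (adjusted p = 0.0339 and 0.0349). Over all genes DESeq2 called 334 of 12449 in this test. The share of all genes at an unadjusted p under 0.05 is not given here, for this or the other comparisons. The interaction in edgeR was 0.79 (SE 0.21, adjusted p = 0.119) for HEY1, 0.89 (SE 0.24, adjusted p = 0.12) for NOTCH1, 1.35 (SE 0.40, adjusted p = 0.14) for DLL1, 0.81 (SE 0.25, adjusted p = 0.159) for NOTCH3 and 0.77 (SE 0.28, adjusted p = 0.189) for JAG1. The median log2 fold change of the 10 genes was 0.23 in TESR origin and 0.77 in cjPSCM origin, and over all genes tested it was 0.01 and −0.02.

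Mesendoderm markers moved with ActA too. Of the 6 of them that were tested, 4 were higher with ActA in TESR origin and 5 in cjPSCM origin. The summed level of the 7 listed was 2026 to 2537 with ActA and 1309 to 1392 without it in TESR origin, and 676 to 1161 and 189 to 242 in cjPSCM origin. None of the 7 was at 0 in both libraries of these conditions, and their part in the differences was not tested.

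In the sorted cells of day 4, few of these genes passed between cells with and without ActA in the pre-ME step. JAG1 was 1.8-fold higher in cjPGCLCs that came from pre-ME with ActA, at 3988 and 4392 against 2133 and 2526 (log2 fold change 0.84, SE 0.20, adjusted p = 0.0332). It was the only 1 of the 10 genes that passed in cjPGCLCs, where 2.53% of all genes passed, and the call was lost without any 1 of the 4 libraries (adjusted p up to 0.329). DESeq2 called 2 of the 10 genes in cjPGCLCs, JAG1 and HEY1 (adjusted p = 0.00224 and 0.0411), and 625 of 13909 over all genes. HEY1, HEY2, HEYL and NOTCH1 were higher with ActA at an unadjusted p of 0.00441, 0.0195, 0.00615 and 0.00579 in edgeR. LFNG alone was lower, at a log2 fold change of −0.50 (adjusted p = 0.796). In somatic cells JAG1 was at 4026 and 4958 against 1729.6 and 3038, with a log2 fold change of 0.91 (SE 0.20, adjusted p = 0.207). None of the 10 genes passed in somatic cells in edgeR, where 0.0253% of all genes did, although 3 had an unadjusted p under 0.05 and DESeq2 called 1. Over all genes DESeq2 called 28 of 13909 in somatic cells. HEY1 and HEYL, at 2987 and 3359.8 against 2208 and 2396 and 83.7 and 68.2 against 26.6 and 34.7, did not overlap between the cjPGCLC conditions, but with log2 fold changes of 0.46 (SE 0.14, adjusted p = 0.0992) and 1.35 (SE 0.43, adjusted p = 0.122) they did not pass. Whether the ActA effect differed between pre-ME and sorted cells was not tested.

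The 2 origins were also compared at the pre-ME stage, where origin cannot be told apart from the separate set of sample numbers of the pre-ME of TESR origin. With ActA, 2 of the 10 genes passed (27.4% of all genes). NOTCH1 was 2.27-fold higher in cjPSCM origin, at 2493 and 2201 against 974 and 1072 (adjusted p = 0.000134). HEY2 was 2.31-fold lower, at 39.2 and 35.1 against 83.2 and 88.1 (adjusted p = 0.0124). HEY1, which differed 6.75-fold between the cjiPSCs, had a log2 fold change of −0.20 (SE 0.15, adjusted p = 0.315) at this stage. Without ActA, 5 of the 10 genes passed (14% of all genes), all lower in cjPSCM origin (5.96% of all genes). They were HEY1 (110.2 and 118 against 246 and 208, log2 fold change −0.99, SE 0.16, adjusted p = 0.000281), HEY2 (13.6 and 6.93 against 42.8 and 32.3, −1.77, SE 0.39, adjusted p = 0.00465), HEYL (38.9 and 41.6 against 109 and 100.1, −1.37, SE 0.39, adjusted p = 0.0232), DLL1 (110.2 and 110.0 against 242 and 209.6, −1.03, SE 0.26, adjusted p = 0.0115) and NOTCH3 (2653 and 1719.8 against 3337 and 3464, −0.63, SE 0.18, adjusted p = 0.0239). Without ActA all 3 HEY genes were therefore lower in cells of cjPSCM origin, as they were among the cjiPSCs, whereas with ActA HEY2 alone passed and HEYL was at 31.7 and 15.4 against 41.0 and 44.6 (−0.81, SE 0.43, adjusted p = 0.173). The calls of HEYL (adjusted p up to 0.132 without any 1 of the 4 libraries), NOTCH3 (up to 0.375, without either TESR replicate or cjPSCM replicate 2), DLL1 (up to 0.0901, without TESR replicate 1 or either cjPSCM replicate) and HEY2 (0.0721, without cjPSCM replicate 2) were lost with single libraries left out. With ActA the HEY2 call was lost without TESR replicate 2 or either cjPSCM replicate (up to 0.0793).

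The largest differences of the series in these genes lay between the pre-ME of cjPSCM origin and the cells sorted on day 4. DLL1, HEY1 and HEY2 rose in cjPGCLCs and in somatic cells, with ActA and without it, and all 3 were past both thresholds except DLL1 in somatic cells without ActA. Of all genes, 6.15% and 5.77% were past both and higher in cjPGCLCs with and without ActA, and 5.29% and 4.99% in somatic cells. HEY2 was at 13.6 and 6.93 in pre-ME without ActA, at 205 and 195 in the cjPGCLCs and at 539.6 and 497 in the somatic cells made from them. Its rise was 18.2-fold in cjPGCLCs (log2 fold change 4.18, SE 0.37, adjusted p = 2.62e-07) and 46.3-fold in somatic cells (log2 fold change 5.53, SE 0.37, adjusted p = 1.09e-08). With ActA it rose from 39.2 and 35.1 to 394 and 263 in cjPGCLCs and to 419.6 and 269.8 in somatic cells, or 8.82-fold and 9.11-fold (adjusted p = 1.24e-06 and 1.11e-06). The libraries of pre-ME and sorted cells did not overlap in either case, and without replicate 1 of the pre-ME without ActA the 2 rises were 4.80 and 6.15 on the log2 scale. HEY1 rose 20-fold in cjPGCLCs and 23-fold in somatic cells without ActA, from 110.2 and 118 to 2208 and 2396 and 2846 and 2512 (SE 0.17 and 0.17 on the log2 scale, adjusted p = 3.89e-11 and 2.63e-11). With ActA the rise was 8.8-fold and 7.68-fold, from 370.5 and 351 to 2987 and 3359.8 and 2697 and 2879 (adjusted p = 4.72e-10 and 7.23e-10). HEY1 in sorted cells lay above the level of the cjiPSCs in TESR medium, and HEY2 lay above every other condition.

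Among the ligand genes only DLL1 rose. With ActA it went from 69.3 and 64.6 in pre-ME to 846 and 489 in cjPGCLCs and 591 and 356 in somatic cells, or 9.99-fold and 6.98-fold (adjusted p = 1.97e-07 and 1.09e-06). Without ActA it went from 110.2 and 110.0 to 619 and 409.8 and 422 and 446, or 4.66-fold and 3.86-fold (adjusted p = 6.78e-06 and 2.53e-05). JAG1 fell in the cells without ActA, from 4023 and 3882 to 2133 and 2526 in cjPGCLCs (log2 fold change −0.78, SE 0.20, adjusted p = 0.00548) and to 1729.6 and 3038 in somatic cells (log2 fold change −0.75, SE 0.20, adjusted p = 0.00625). DLL3 was low throughout and fell without ActA, from 20.6 and 27.7 to 10.6 and 4.73 in cjPGCLCs (adjusted p = 0.0231) and 4.61 and 9.28 in somatic cells (adjusted p = 0.0239). These DLL3 values stand for few reads, and in DESeq2 the adjusted p was 0.052 and 0.0544. LFNG also fell. With ActA it went from 1148 and 893 to 188 and 280.1 in cjPGCLCs (log2 fold change −2.14, SE 0.47, adjusted p = 0.00127) and to 211 and 198 in somatic cells (log2 fold change −2.33, SE 0.48, adjusted p = 0.000842). Without ActA it went from 808 and 632 to 157 and 141 in somatic cells (log2 fold change −2.31, SE 0.50, adjusted p = 0.00149), while in cjPGCLCs, at 319.7 and 334, the log2 fold change of −1.15 (SE 0.45, adjusted p = 0.0508) did not pass.

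HES1 and NOTCH3 passed in the cells without ActA and did not pass in those with it. HES1 rose from 89.6 and 100.1 in pre-ME without ActA to 369.9 and 326 in cjPGCLCs (log2 fold change 1.87, SE 0.32, adjusted p = 0.000249) and to 620.4 and 631 in somatic cells (6.49-fold, SE 0.33 on the log2 scale, adjusted p = 7.61e-06). With ActA it was at 486 and 410.1 in pre-ME, 487 and 533 in cjPGCLCs and 706 and 722 in somatic cells, and the log2 fold changes were 0.18 (SE 0.30, adjusted p = 0.628) and 0.66 (SE 0.30, adjusted p = 0.0772). NOTCH3 rose without ActA, from 2653 and 1719.8 to 4599 and 4359 in cjPGCLCs and 4675 and 4977 in somatic cells, or 2.03-fold and 2.16-fold (adjusted p = 0.000293 and 0.000129). NOTCH1 fell 1.55-fold in somatic cells with ActA, from 2493 and 2201 to 1576 and 1465 (adjusted p = 0.00663). Whether these steps differed between cells with and without ActA was not tested. HEYL rose with ActA from 31.7 and 15.4 to 83.7 and 68.2 in cjPGCLCs (log2 fold change 1.63, SE 0.43, adjusted p = 0.00541) and to 90.3 and 56.6 in somatic cells (log2 fold change 1.55, SE 0.45, adjusted p = 0.00893). Without ActA it rose from 38.9 and 41.6 to 94.6 and 108 in somatic cells (log2 fold change 1.31, SE 0.41, adjusted p = 0.0164).

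Of the 10 genes, 5 passed in cjPGCLCs with ActA (48.4% of all genes), 7 without ActA (40%), 6 in somatic cells with ActA (48%) and 9 without ActA (42.2%), so a large share of all genes changed in these steps. The median absolute log2 fold change of the 10 genes was 1.19, 1.33, 1.12 and 1.83 in that order, against 0.59, 0.48, 0.61 and 0.54 over all genes tested. The cjPGCLC and somatic comparisons of an ActA condition use the same pre-ME libraries and are therefore not independent. With ActA, the calls of HEYL were lost without pre-ME replicate 2 or, in somatic cells, somatic replicate 1 (adjusted p up to 0.102, log2 fold changes 1.25 in cjPGCLCs and 1.17 to 1.18 in somatic cells, and at most 2.30 and 2.23 without another library), and that of NOTCH1 without pre-ME replicate 1 or somatic replicate 2 (0.0626). Without ActA, the calls of HEYL (without either pre-ME replicate or somatic replicate 2, up to 0.11), of DLL3 (without pre-ME replicate 2, cjPGCLC replicate 2 or either somatic replicate, up to 0.145, log2 fold changes −1.32 to −1.20 in cjPGCLCs, where another library left out gave −2.34, and −2.40 to −1.39 in somatic cells) and of JAG1 (without cjPGCLC replicate 1 or somatic replicate 1, up to 0.105) were lost.

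Markers of other cell types moved in the same steps. All 5 amnion-like markers listed rose in every 1 of the 4 comparisons, and their summed level was 686 to 966 normalised counts in the pre-ME of cjPSCM origin and 4861 to 7580.3 in the sorted cells. Of the 8 markers of mesoderm and mesenchyme, 7 were tested, and 5 rose in cjPGCLCs and 6 in somatic cells with each pre-ME. Their sum was 1462 to 2494 in pre-ME and 12673 to 24597 in sorted cells. In pre-ME, VTCN1 was at 0 with ActA and GABRP without it, and both are amnion-like markers. The pluripotency markers moved the other way, from a sum of 18589 to 25788 in pre-ME to 7644 to 11974 in sorted cells, and 4 to 6 of the 6 fell in each comparison. The mesendoderm markers went from 189 to 1161 to 14.9 to 91.1, with 5 of the 6 tested lower in both kinds of sorted cells with ActA, and without ActA 1 lower in cjPGCLCs and 2 in somatic cells. The part of these markers in the changes of DLL1, HEY1 and HEY2 was not tested.

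**Figure D4:**
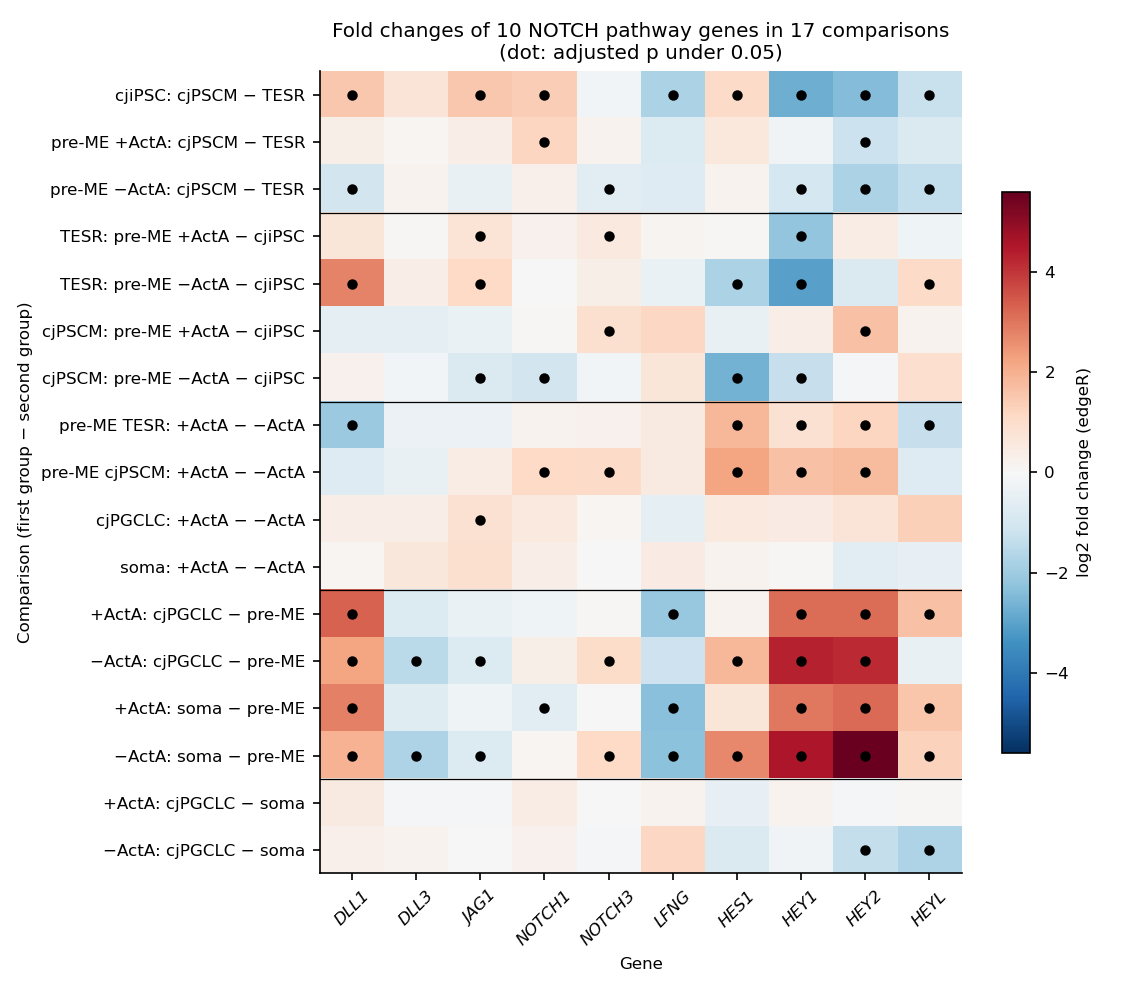
Log2 fold change (colour) of the 10 genes (columns) in the 17 comparisons of conditions (rows, first group minus second group), with a dot where the adjusted p was under 0.05. The rows of sorted cells against pre-ME held the widest changes, in DLL1, HEY1 and HEY2, and the rows of cjPGCLCs against somatic cells held 2 dots, for HEY2 and HEYL without ActA.

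Finally, cjPGCLCs were compared with the somatic cells sorted beside them. With ActA none of the 10 genes passed in edgeR, where 4.84% of all genes did, and 1 gene had an unadjusted p under 0.05. DESeq2 called 0 of the 10 genes and 847 of 15855 over all genes. Without ActA 2 genes passed (9.63% of all genes), and both were lower in cjPGCLCs (2.96% of all genes). HEY2 was at 205 and 195 in cjPGCLCs and 539.6 and 497 in somatic cells, 2.55-fold lower (log2 fold change −1.35, SE 0.28, adjusted p = 0.00455). HEYL was at 26.6 and 34.7 in cjPGCLCs and 94.6 and 108 in somatic cells, 3.35-fold lower (log2 fold change −1.74, SE 0.44, adjusted p = 0.0162). The libraries of the 2 populations did not overlap for either gene, although the HEYL call was lost without any 1 of the 4 libraries (adjusted p up to 0.18). HES1 was at 369.9 and 326 and 620.4 and 631, with a log2 fold change of −0.82 (SE 0.30, adjusted p = 0.109). With ActA, HEY2 was at 394 and 263 in cjPGCLCs and 419.6 and 269.8 in somatic cells and HEYL at 83.7 and 68.2 and 90.3 and 56.6, so that the populations overlapped (log2 fold changes −0.05, SE 0.27, adjusted p = 0.97 and 0.08, SE 0.41, adjusted p = 0.967). Whether the sorted populations differed more without ActA was tested as an interaction. None of the 10 genes passed it in edgeR (0.0633% of all genes), and 2 had an unadjusted p under 0.05. DESeq2 called 0 of the 10 genes and 93 of 13909 over all genes. The interaction in edgeR was 1.30 (SE 0.39, adjusted p = 0.34) for HEY2 and 1.82 (SE 0.60, adjusted p = 0.42) for HEYL. The median absolute log2 fold change of the 10 genes was 0.14 with ActA and 0.25 without it, and over all genes it was 0.21 and 0.25.

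Genes of the sort and of other cell types differed in the same comparison. Without ActA, CXCR4 was at 1183 and 1128 in cjPGCLCs and 53.0 and 49.5 in somatic cells, and ITGA6 was at 1829 and 1401 and 201 and 155. EPCAM, which the labels name, had means of 1735 and 143, 12.3-fold higher in cjPGCLCs (edgeR, adjusted p = 1.55e-05). The levels of these genes do not tell which pair was used for the sort. Of the 8 endothelial markers, 4 were lower and 1 was higher in cjPGCLCs, and their summed level was 5243 to 5407 against 6669 to 8469. The 7 tested markers of mesoderm and mesenchyme held 2 that passed, both past both thresholds and lower in cjPGCLCs. HAND2, a transcription factor gene of lateral mesoderm, was at 836 and 403 against 3509.9 and 2567, and COL1A1, a collagen gene, at 460.2 and 438 against 2285 and 2469. The sums of this list were 13495 to 19216 and 20026 to 24597. The part of these cells in the HEY2 and HEYL differences was not tested.

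The wider pathway was followed with 55 further genes, of which 53 could be tested. HES5, a target gene of neural progenitors, had at most 2 reads in any library, and HELT had 1 read in all, and both were left out by the filter on low counts. Between the cjiPSC media 20 of the 53 passed, 12 higher and 8 lower in cjPSCM, where 36.2% of all genes passed, 18.1% higher and 18.1% lower, and the median absolute log2 fold change of the 53 was 0.38, against 0.46 over all genes. Among them were the ligand genes DLL4, of sprouting vessels, at 429 and 114 in cjPSCM against 38.6 and 28.3 in TESR medium (log2 fold change 2.98, SE 0.54, adjusted p = 0.000384), and JAG2, at 1923 and 2016 against 286 and 399 (2.52, SE 0.18, adjusted p = 2.37e-08). DLK1 and DLK2, non-canonical members of the Delta family, were lower, at log2 fold changes of −2.80 (SE 0.52, adjusted p = 0.000461) and −2.30 (SE 0.47, adjusted p = 0.00105). The widest fall was that of DTX1, an E3 ligase of the Deltex family that binds NOTCH, from 289 and 316 to 0.942 and 23.7 (−4.85, SE 0.63, adjusted p = 1.45e-05). HES4, another bHLH repressor of this family, rose from 6.06 and 13.4 to 43.3 and 94.9 (2.95, SE 0.41, adjusted p = 3.03e-05). HES2 and the corepressor gene TLE2 were also past both thresholds and higher in cjPSCM, but in TESR medium HES2 had 1 read in each library and TLE2 had 1 and 0. The calls of these 2 genes were lost with single libraries left out (HES2 without TESR replicate 1 or cjPSCM replicate 2, adjusted p up to 0.191, and TLE2 without cjPSCM replicate 1, 0.0705). Since the cjPSCM replicates stood apart, the log2 fold changes of DLL4, DLK1, DLK2, DTX1 and HES4 were 1.68 to 3.62, −4.20 to −1.96, −3.17 to −1.83, −8.16 to −3.70 and 2.31 to 3.45 with either of the 4 libraries left out, and all these calls held. In cjPSCM, therefore, 4 ligand genes of the canonical families (DLL1, DLL4, JAG1 and JAG2) were higher, and the target genes moved both ways.

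Between pre-ME with and without ActA, 6 of the 53 genes were higher and 3 lower in TESR origin, and 12 higher and 4 lower in cjPSCM origin. Of all genes, 8.84% passed in TESR origin (5.63% higher) and 20.9% in cjPSCM origin (11.4% higher). Past both thresholds in both origins were BHLHE40, a repressor related to the HES and HEY proteins, and HES3. BHLHE40 was at 906 and 674 with ActA and 139 and 93.1 without it in TESR origin (log2 fold change 2.77, SE 0.29, adjusted p = 9.68e-06), and at 633 and 458 and 77.8 and 43.6 in cjPSCM origin (3.12, SE 0.31, adjusted p = 6.74e-06). HES3 was lower with ActA, at 15.9 and 43.0 against 262 and 399 in TESR origin (−3.48, SE 0.65, adjusted p = 0.00216) and 20.9 and 18.3 against 278 and 325 in cjPSCM origin (−3.94, SE 0.73, adjusted p = 0.00175). Hence 2 HES genes, HES1 and HES3, moved in opposite directions with ActA in both origins. In TESR origin DTX1 was lower with ActA (−2.46, SE 0.53, adjusted p = 0.00601) and BHLHE41 higher (2.07, SE 0.45, adjusted p = 0.00835). With single libraries left out, the calls of HES3 (without replicate 1 with ActA, adjusted p = 0.0533, with log2 fold changes of −4.37 to −2.94 over the 4 libraries left out in turn), DTX1 (without replicate 1 with ActA or 2 without it, up to 0.114) and BHLHE41 (without replicate 1 with ActA or either replicate without it, up to 0.135) were lost in TESR origin.

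Against the cjiPSCs, DLL4 fell in all 4 kinds of pre-ME. It went from 429 and 114 in cjPSCM to 17.5 and 14.0 with ActA (log2 fold change −4.08, SE 0.60, adjusted p = 0.000186) and to 13.6 and 14.9 without it (−4.24, SE 0.59, adjusted p = 5.4e-05). From 38.6 and 28.3 in TESR medium it went to 0 and 3.72 with ActA (−4.11, SE 0.78, adjusted p = 0.000788) and to 2.74 and 2.34 without it (−3.70, SE 0.74, adjusted p = 0.00102). These calls held without any single library, although the log2 fold changes with ActA then ranged −4.73 to −2.79 in cjPSCM origin and −8.24 to −3.16 in TESR origin. In TESR origin the corepressor gene TLE3 rose with ActA (3.03, SE 0.15, adjusted p = 8.55e-10) and without it (2.61, SE 0.15, adjusted p = 3.43e-09), whereas TLE1 fell without ActA (−2.45, SE 0.18, adjusted p = 1.01e-07). DTX1 (−4.18, SE 0.54, adjusted p = 2.84e-05) and DLK2 (−2.01, SE 0.43, adjusted p = 0.00188) fell in TESR origin with ActA. HES3 rose in TESR origin without ActA (2.77, SE 0.64, adjusted p = 0.00306). In cjPSCM origin BHLHE40 fell without ActA (−2.99, SE 0.31, adjusted p = 4.52e-06). BHLHE41 had no read in any cjiPSC library and passed in all 4 kinds of pre-ME. Counted against 3 reads per library, its level in pre-ME of TESR origin with ActA was higher by at least 7.05-fold. Its other 3 calls were each lost without replicate 1 of the cjiPSCs concerned (adjusted p up to 0.115). HES2 in TESR origin, TLE2 in cjPSCM origin and HES3 in cjPSCM origin with ActA were also past both thresholds, but each of these calls was lost without any of 2 or 3 single libraries (adjusted p up to 0.246, 0.508 and 0.524). The change without ActA depended on the medium beyond a log2 difference of 2 for JAG2 (−2.04, SE 0.24, adjusted p = 0.000119), TLE3 (−2.31, SE 0.20, adjusted p = 5.69e-06) and HES4 (−2.18, SE 0.55, adjusted p = 0.025), the last of which was lost with 5 of 8 libraries left out in turn (up to 0.19). Between the 2 origins, pre-ME of cjPSCM origin had more NEURL1, an E3 ligase that acts on ligands, with ActA (2.16, SE 0.37, adjusted p = 0.000566) and without it (2.22, SE 0.39, adjusted p = 0.000725), less DTX1 without ActA (−4.06, SE 0.65, adjusted p = 0.000301) and more DLL4 with ActA (3.01, SE 0.88, adjusted p = 0.0185, lost without replicate 1 of either origin at up to 0.129).

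**Figure D5:**
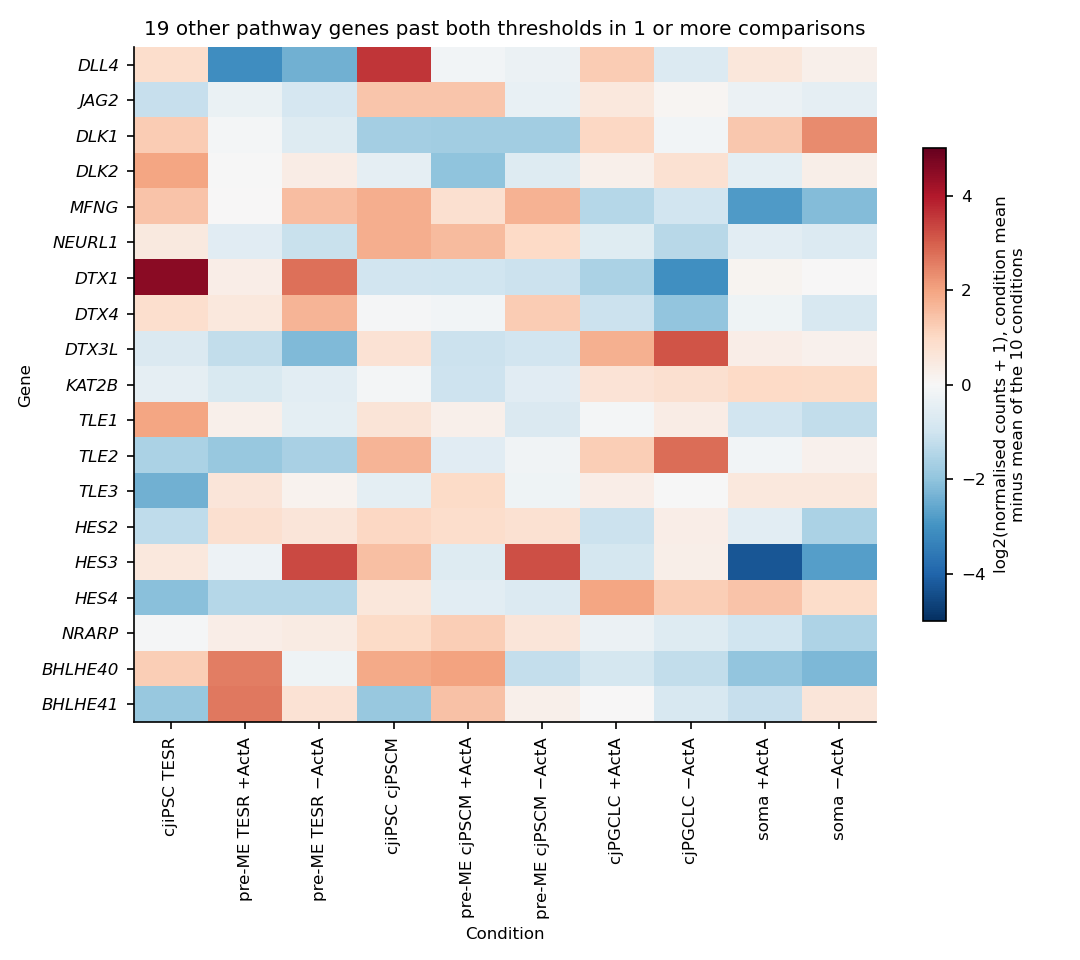
Condition means on log2(normalised counts + 1), minus the mean of the 10 conditions (colour), of the 19 wider pathway genes (rows) that were past both thresholds in 1 or more comparisons, over the 10 conditions (columns). DLL4 and NEURL1 were highest in the cjiPSCs in cjPSCM, DTX1 in those in TESR medium, HES3 was high in pre-ME without ActA, and DTX3L was highest in cjPGCLCs without ActA.

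In the sorted cells, DTX3L, a Deltex-like E3 ligase, and DLK1 were the wider genes that rose most from pre-ME. DTX3L was at 90.2 and 82.2 in pre-ME without ActA and 1542 and 1447 in cjPGCLCs (4.10, SE 0.22, adjusted p = 9.86e-10), and with ActA it was at 65.1 and 95.5 and 603 and 570.2 (2.90, SE 0.22, adjusted p = 5.65e-08). DLK1 rose in cjPGCLCs with ActA (2.94, SE 0.53, adjusted p = 0.000259) and in somatic cells with ActA (3.27, SE 0.53, adjusted p = 0.00011) and without it (4.12, SE 0.50, adjusted p = 7.85e-06). HES4 rose in cjPGCLCs with ActA (2.48, SE 0.33, adjusted p = 1.8e-05), as did DLK2 (2.12, SE 0.57, adjusted p = 0.00618, lost without cjPGCLC replicate 1 or pre-ME replicate 2, adjusted p up to 0.0922). KAT2B, an acetyltransferase gene, rose in somatic cells with ActA (2.04, SE 0.23, adjusted p = 3.42e-06), and TLE2 in cjPGCLCs without ActA (3.18, SE 0.70, adjusted p = 0.00201, 2.06 to 5.17 with a library left out). Other genes of the target list, which also holds repressors related to the HES and HEY proteins, fell where HEY1 and HEY2 rose. NRARP, a feedback inhibitor of the pathway, fell in somatic cells with ActA (−2.24, SE 0.23, adjusted p = 1.35e-06) and without it (−2.18, SE 0.25, adjusted p = 3.34e-06). BHLHE40 fell with ActA in cjPGCLCs (−2.94, SE 0.32, adjusted p = 2.04e-06) and in somatic cells (−4.00, SE 0.37, adjusted p = 3.53e-07). HES3 fell without ActA in cjPGCLCs (−2.98, SE 0.68, adjusted p = 0.00229), and in somatic cells without ActA it went from 278 and 325 to 2.31 and 6.19. Of the fringe genes, MFNG had at most 3 reads in each sorted library, against 11.7 and 11.2 normalised counts in pre-ME with ActA and 23.0 and 21.8 without it. NEURL1 fell in cjPGCLCs (−2.19, SE 0.41, adjusted p = 0.000352 with ActA and −2.37, SE 0.44, adjusted p = 0.000474 without it) and in somatic cells with ActA (−2.14, SE 0.44, adjusted p = 0.000734). DTX4 without ActA and BHLHE41 in somatic cells with ActA were also past both thresholds and lower, at few reads, and their calls in somatic cells were lost with single libraries left out (adjusted p up to 0.194 and 0.122).

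Of the 8 tested target genes outside the 10, 1 rose and 4 fell in each of the 4 steps from pre-ME to sorted cells, and the gene that rose was HES4 each time. The genes listed as targets therefore did not move as 1 group. Whether each of them answers to NOTCH in these cells was not tested. Of all 53 genes, 15 rose and 15 fell in cjPGCLCs with ActA, 19 and 10 without ActA, 14 and 15 in somatic cells with ActA, and 19 and 14 without ActA. In these steps 48.4%, 40%, 48% and 42.2% of all genes passed in the same order. The protease genes ADAM10 and ADAM17 were among those that rose in all 4, and PSEN2 fell in all 4. Between cjPGCLCs and somatic cells, 4 of the 53 genes passed with ActA, all higher in cjPGCLCs (JAG2, NUMB, DTX3L and TLE1), and 9 without it. Of all genes 4.84% and 9.63% passed, and 76.0% and 69.3% of these were higher in cjPGCLCs. Past both thresholds without ActA were DTX3L, at 1542 and 1447 against 179.9 and 210.4 (2.95, SE 0.21, adjusted p = 3.04e-07), DLK1, at 66.8 and 50.4 against 321 and 347 (−2.46, SE 0.46, adjusted p = 0.00195), and TLE2 (2.79, SE 0.81, adjusted p = 0.0402), whose call was lost without any 1 of the 4 libraries (up to 0.251).

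Genes of the segmentation clock were looked at as a group because DLL1, DLL3, LFNG and HES7 act in it. Of the 10 genes listed, 8 were tested, and MSGN1 and RIPPLY2 were left out by the filter on low counts. MSGN1, a factor of presomitic mesoderm, had no read in any library of cjPSCM origin and at most 5 in those of TESR origin. RIPPLY1 was at 18.2 and 31.3 in the cjiPSCs in TESR medium and had no read in those in cjPSCM, which was at least 6.8-fold lower against a floor of 3 reads per library. It was lower in pre-ME of TESR origin too, with ActA (−3.55, SE 0.61, adjusted p = 0.00125) and without it. From pre-ME to sorted cells DLL1 was the only 1 of the 8 that rose, while LFNG fell with ActA, HES7 and DLL3 fell without ActA, and LFNG fell in the somatic cells without ActA too. In any comparison at most 4 of its 8 genes passed, where the share of all genes that passed ran from 0.0253% to 48.4% over the comparisons. In the steps from pre-ME to sorted cells that share was 40% to 48.4%, so the count by itself says little about the list.

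Across the condition means, which are not independent since the conditions derive from one another, HEY1 and HEY2 followed each other (Pearson r = 0.90, n = 10 conditions, on log2(normalised counts + 1)). HEY2 also ran with NOTCH3 (r = 0.85) and against DLL3 (r = −0.91), and DLL1 ran against LFNG (r = −0.82). For HES1 the highest positive correlations were with HEY1 (r = 0.65) and NOTCH1 (r = 0.64), while that of HES1 with HEYL was −0.19. Among 10966 genes whose highest condition mean was at least 100 normalised counts, the 5 most like HEY2 were SH3PXD2A, GNG4, TAC3, MYRF and SOX6 (r = 0.98 to 0.99). The 5 most like DLL1 were NDST3, DCX, KIAA2026, EZH1 and SORCS1 (r = 0.96 to 0.97), and the 5 most like NOTCH1 were JUNB, PLCB4, JAG2, TMEM273 and RTKN (r = 0.93 to 0.97). The ligand gene JAG2 was thus among the genes whose levels were closest to those of NOTCH1.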

How the data were processed

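Poly(A) RNA sequencing of 20 libraries, 2 for each of 10 conditions, was analysed from the tables that the authors deposited, namely raw read counts per gene and the same counts divided by size factors (normalised counts, a signal with no gene length in it). Per the labels and the methods of the study, the authors checked reads with FastQC 0.11.8, aligned them with STAR 2.7.0a to calJac4, counted them on genes with HTSeq 0.11 and normalised them with DESeq2. The annotation release, the strand setting and which RNA kit (PicoPure or RNeasy Plus) served which sample are not given in the sources used here, so overlapping and antisense genes could not be separated. The count table has 2 summary rows of no gene, which were left out of the tests. Reads on no feature were 10.6% to 23.2% of all reads in the table, with these rows included.

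Counts were tested in R 4.3.3 with edgeR 4.0.16 (quasi-likelihood test, TMM scaling, filterByExpr by condition, 1 coefficient per condition on all 20 libraries, 10 residual degrees of freedom, common dispersion 0.0203), and p-values were adjusted by Benjamini and Hochberg over the 15797 genes tested. Of 25102 symbols, 21267, including the 10 members, were found in the RefSeq gene table given. Figures were drawn with matplotlib 3.10.9, and tables were summarised with pandas 2.3.3 in Python 3.11.15. The standard error is the log2 fold change divided by the square root of F. In all, 17 comparisons and 3 interactions were made, the latter as differences between 2 log2 fold changes. A gene "passed" at an adjusted p under 0.05, and was past both thresholds where the log2 fold change was also beyond 2 in size. The script was tested on simulated counts before use.

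The alternatives were DESeq2 1.42.0 on all 20 libraries, DESeq2 size factors in edgeR, no filter on low counts, a fit on the libraries of the comparison only, the replicate number as a block, each library left out in turn, TMM-normalised CPM for the levels and a pseudocount of 10 instead of 1 for the correlations. Where a leave-out left a condition with 1 library, that library was assumed to vary like the others. The members were named in every comparison. Of the wider and segmentation lists, genes past both thresholds and genes with too few reads to test were named, along with the lists' genes that moved alike in all 4 steps to sorted cells, which were chosen after their values were seen, and for the target, ligand and receptor gene with the widest range the 5 genes with the most similar condition means. The members and lists were chosen with earlier results of these data known.

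Depth was 4784964 to 22067099 reads per library (median 11599813). A floor of 3 counts equals 0.136 to 0.627 CPM, and it covers counting error only. With 2 replicates of 1 line, p-values rest on the spread between cultures, estimated over all 20 libraries together. The replicates of the cjiPSCs in cjPSCM differed more (SD 0.959) than those of the other conditions (0.311 to 0.619). For comparisons with these cells the shared estimate may therefore be too small. Sequences of the members were not analysed here.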

Additional observations from a re-analysis of the deposited data

Results flagged for a closer look

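For 4 genes the change from cjiPSCs to pre-ME without ActA differed between the 2 media by a test of the difference itself (edgeR, the log2 fold change in cjPSCM origin minus that in TESR origin). The difference was 1.76 for HEY1 (SE 0.22, adjusted p = 0.000176), −2.55 for DLL1 (SE 0.41, adjusted p = 0.00172), −1.93 for JAG1 (SE 0.28, adjusted p = 0.000759) and −1.08 for NOTCH1 (SE 0.25, adjusted p = 0.0145). JAG1 rose in TESR origin and fell in cjPSCM origin, HEY1 fell in both, DLL1 passed in TESR origin and NOTCH1 in cjPSCM origin. For NOTCH1 the difference was −1.38 to −0.80 with 1 library left out. Fitted on the 8 libraries concerned, NOTCH1 did not pass (adjusted p = 0.187). The cjiPSCs in cjPSCM, whose replicates stood farthest apart, enter all 4 values. So do the pre-ME of TESR origin, whose sample numbers stand apart from those of the other libraries.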

How the results depend on the processing

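The 200 member values (10 genes in 17 comparisons and 3 interactions) held 73 calls. DESeq2 kept 71 of them, DESeq2 size factors 72, and the fit without a filter 73, and none reversed. With the libraries of the comparison only 65 were kept, and 28 values that had not passed did. With each library left out, 244 of 308 calls were kept, 64 were lost and none reversed. HEYL between the cjiPSC media had an adjusted p of 0.051 with DESeq2 size factors. The cause of these changes was not tested. With the libraries of the comparison only, the number of the 10 genes that passed went from 8 to 5 (cjiPSC media), 5 to 8 (ActA in pre-ME of TESR origin), 5 to 8 (ActA in pre-ME of cjPSCM origin), 2 to 0 (pre-ME with ActA against cjiPSCs in cjPSCM), 4 to 2 (pre-ME without ActA against them), 2 to 5 (origins of pre-ME with ActA), 0 to 2 and 2 to 4 (cjPGCLCs against somatic cells with and without ActA), 1 to 5 (ActA in cjPGCLCs), 0 to 1 (ActA in somatic cells) and 0 to 5 (ActA by medium). The calls over all genes moved too, from 5716 to 1794 (cjiPSC media), 1396 to 4296 and 3306 to 4808 (ActA in pre-ME of TESR and cjPSCM origin), 2802 to 178 and 5996 to 979 (pre-ME with and without ActA against cjiPSCs in cjPSCM), 4328 to 7780 (origins of pre-ME with ActA), 764 to 1771 and 1522 to 2636 (cjPGCLCs against somatic cells with and without ActA), 400 to 1023 (ActA in cjPGCLCs), 4 to 139 (ActA in somatic cells) and 63 to 2513 (ActA by medium). For pre-ME without ActA by medium, the same fit took the 10 genes from 4 to 3 calls and all genes from 1033 to 125. Without a filter the number of the 10 genes was 4 for the origins of pre-ME with ActA, 4 for cjPGCLCs against somatic cells without ActA, 4 for ActA in cjPGCLCs, 1 for ActA in somatic cells, 4 for ActA by medium and 2 for the sort by ActA. Of all 25102 genes that fit called 4635, 1997, 1015, 122, 735 and 269 in the same order. DESeq2 called 2 for ActA in cjPGCLCs, 1 for ActA in somatic cells and 2 for ActA by medium, and 625, 28 and 334 over all genes. With 1 library left out the number ranged from 5 to 9 for the cjiPSC media, was 3 each time for ActA in TESR origin and ranged from 4 to 5 for ActA in cjPSCM origin. Against the cjiPSCs it ranged from 1 to 4 and 4 to 6 in cjPSCM origin (with and without ActA) and from 2 to 3 and 4 to 5 in TESR origin. For the origins of pre-ME it was 1 to 2 with ActA and 1 to 3 without it. For cjPGCLCs against somatic cells it was 0 with ActA and 1 without it, for ActA 0 in cjPGCLCs and 0 to 1 in somatic cells. For sorted cells against pre-ME it was 4 to 5 and 6 to 8 (cjPGCLCs with and without ActA) and 5 and 7 to 8 (somatic cells), and for the interactions 0 to 1 (ActA by medium), 3 to 5 (pre-ME without ActA by medium) and 0 (sort by ActA). With 1 library left out, log2 fold changes that had not passed and changed sign ranged from −0.16 to 1.22 (DLL3) and −0.417 to 0.0622 (NOTCH3) between the cjiPSC media, from −0.0899 to 0.162 for NOTCH1 in pre-ME of TESR origin without ActA, and from −0.374 to 0.30 (HEY2) and −0.23 to 0.44 (HEYL) between cjPGCLCs and somatic cells with ActA.

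The replicate number as a block kept all 73 calls and added 1, so that the count for pre-ME of TESR origin without ActA was 6. The labels do not say what the replicate numbers share. The correlation of deviations of same-numbered libraries lay between −0.193 and 0.234, and with and without ActA it was 0.222 and 0.227 in pre-ME of TESR and cjPSCM origin, 0.234 in cjPGCLCs and 0.0874 in somatic cells. Of the wider genes past both thresholds, 61 of 69 calls were kept in DESeq2, 60 of 63 with the libraries of the comparison only, and 256 of 300 with each library left out. No scaling moved the median log2 fold change of all genes by over 0.1. The share of calls that were higher moved by over 10 percentage points with the libraries of the comparison only, to 22.1% from 47.1% for pre-ME without ActA against the cjiPSCs in cjPSCM, to 60.7% from 76.0% and to 57.6% from 69.3% for cjPGCLCs against somatic cells with and without ActA. It also moved where few genes were called, from 75.0% of 4 calls for ActA in somatic cells (56.8% in that fit, 57.1% in DESeq2, 51.6% without a filter) and from 40.0% of 10 calls for the sort by ActA (68.0% with the replicate block, 63.9% without a filter, 54.8% in DESeq2). TMM-normalised CPM left the levels within the replicate spread, and a pseudocount of 10 kept 3, 4 and 4 of the 5 genes most like HEY2, DLL1 and NOTCH1. Depth limits DLL3, with 2 libraries at 3 counts or fewer, and genes such as HES2, TLE2, MFNG and BHLHE41.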
